A study of Mus musculus with 6 samples.

Results

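The genes described here take iron into the cell, store it, release it, free it from haem and sense it. They are Trf, Tfrc, Slc11a2, Fth1, Ftl1, Slc40a1, Cp, Ireb2, Aco1 and Hmox1, chosen by symbol, and all 10 were found among the 22057 genes of the deposited table. The RNA came from cultures of neural progenitor cells, which divide and can give rise to neurons, astrocytes and oligodendrocytes, from mice with the genotype p53-null. This genotype, without the tumour suppressor encoded by Trp53, was shared by both groups. The EF group (n = 3) spent 4 days in stem cell medium to which EGF, FGF and heparin were added, and is the control in the series design. The PDGFA group (n = 3) spent 4 days with PDGFA, platelet-derived growth factor A. Cells of the same 3 mice, numbered 62, 68 and 69, gave 1 library in each group. EGF, FGF and heparin on one side and PDGFA on the other were exchanged for each other, so the loss of one and the gain of the other cannot be told apart.

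Libraries held 27270246 to 39601349 recovered reads. Trp53 was read in every library, at 1672 to 2383 normalized counts in EF and 988.3 to 1122 in PDGFA. Which part of Trp53 is missing is not given by the labels, so its reads are no check of the genotype. The 8 neural progenitor markers summed to 107700, 154800 and 212800 in EF for mice 62, 68 and 69 and to 51970, 55540 and 59680 in PDGFA, and none was at 0 in either group. The 10 oligodendrocyte markers summed to between 2347 and 3607 in EF, where Mog was at 0, and to between 237100 and 321900 in PDGFA. Progenitor markers were therefore read in every library, but in the test described below 5 of the 8 were lower in PDGFA and 2 higher. Mean Nes was 33680 in EF and 2575 in PDGFA, and mean Sox2 was 11180 and 17550. The PDGFA libraries also held RNA of oligodendrocyte genes and of the astrocyte marker Gfap (mean 36.15 in EF and 91000 in PDGFA). In bulk RNA, fewer cells of a type and less RNA per cell cannot be told apart.

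Iron travels in body fluids bound to transferrin, which cells take up through the transferrin receptor into endosomes, where the iron is released and carried into the cytosol. Spare iron is held in a shell of ferritin heavy and light chains, and iron leaves the cell through ferroportin, helped by copper oxidases such as ceruloplasmin. When iron is scarce, the iron regulatory proteins bind a stem-loop in certain messenger RNAs, the iron-responsive element, which blocks translation when it lies in the 5′ UTR and slows the decay of the RNA when it lies in the 3′ UTR of the transferrin receptor. In the brain, oligodendrocytes are known as the cells richest in iron, ferritin and transferrin.

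The stem-loops of the ferritin, ferroportin and transferrin receptor genes are shown because they are the elements through which iron is known to act on these RNAs, separately from transcription. They were found in GENCODE M21 on build GRCm38 by a pattern of a bulged C, 5 paired bases, the loop CAGTGN with any last base but G, and 5 paired bases, with G-T pairs allowed, on the strand of the transcript. The 6 bases of the loop are in capitals, and each sequence has 27 bases.
Fth1, 5′ UTR, chr19:9982733-9982759, plus strand: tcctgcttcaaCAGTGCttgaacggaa
Ftl1, 5′ UTR, chr7:45459780-45459806, minus strand: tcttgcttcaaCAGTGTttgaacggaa
Slc40a1, 5′ UTR, chr1:45925466-45925492, minus strand: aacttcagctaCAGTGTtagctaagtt
Tfrc, 3′ UTR, chr16:32631220-32631246, plus strand: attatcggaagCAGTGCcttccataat
Tfrc, 3′ UTR, chr16:32631599-32631625, plus strand: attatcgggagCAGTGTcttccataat
Tfrc, 3′ UTR, chr16:32631664-32631690, plus strand: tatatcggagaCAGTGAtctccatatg
Tfrc, 3′ UTR, chr16:32631711-32631737, plus strand: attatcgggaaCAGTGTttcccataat
The ferritin elements shared 25 of 27 bases with each other. The 4 elements of Tfrc shared 17 to 25 of 27 bases among themselves. The pattern occurred in the 5′ UTR of 23 of 20899 genes (0.11%) and in the 3′ UTR of 100 of 21022 genes (0.476%). A match is a description of letters, and the other 6 genes had none under this strict pattern, which says nothing about binding.

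Of the 10 genes, 9 had enough reads to be tested between the groups. Fth1, Ftl1 and Hmox1 were higher in PDGFA, Trf and Cp were lower, and Tfrc, Slc11a2, Ireb2 and Aco1 did not pass the test. The test was limma on log2(normalized count + 1), with Benjamini-Hochberg adjustment over all 17068 genes tested and a threshold of 0.05, and every adjusted p is from it unless another tool is named. The 5 called genes were 55.6% of the 9 tested, and the background was high: 39.8% of all tested genes were called, 21.8% higher and 18.0% lower. The number called among the 10 genes was 5 with edgeR (40.2% of all genes), 6 with DESeq2 (45.1%) and 5 in limma with the mouse as a block (34.2%). The median log2 fold change of the 9 genes, PDGFA minus EF, was -0.10, against -0.01 over all genes tested. In 5 of the 10 genes the 3 libraries of a group lay wholly above or below those of the other group, as they did in 55.5% of all tested genes. PDGFA was wholly higher in 3 of the 10 and in 29.2% of all, and wholly lower in 2 of the 10 and in 26.3% of all. The genes therefore moved in both directions, and their share of calls and of groups that do not overlap is to be read against these shares.

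**Figure D1:**
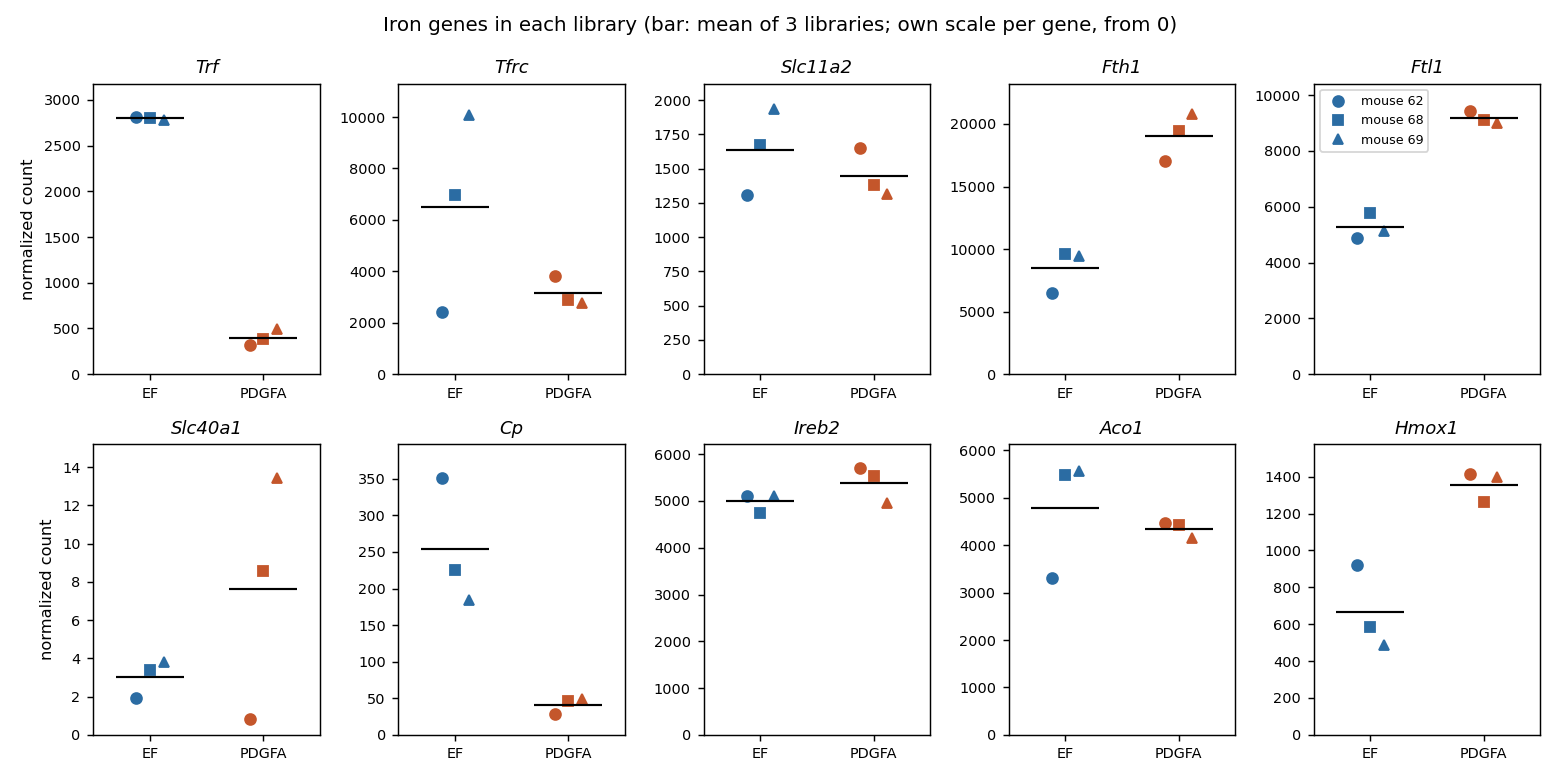
Normalized read count (vertical axes, each from 0 on its own scale) of the 10 iron genes in the 3 EF and 3 PDGFA libraries (horizontal axes); each point is 1 library, its shape gives the mouse and the bar is the mean of 3 libraries. The groups do not overlap for Trf, Cp, Fth1, Ftl1 and Hmox1, and the EF libraries are spread most widely for Tfrc, from 2428 to 10080.

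Of the RNAs of Trf, Tfrc and Slc11a2, only that of Trf passed the test, and uptake itself was not measured. Trf encodes transferrin, the iron carrier of body fluids, and lies on chromosome 9 (103204001 to 103230444, minus strand). It was read at 2818, 2799 and 2783 normalized counts in EF for mice 62, 68 and 69, and at 321.7, 389.6 and 489.2 in PDGFA. The EF libraries were nearly equal, with a coefficient of variation of 0.631%, every PDGFA library was lower, and the groups did not overlap. The means were 2800 ± 17.7 (SD, n = 3) and 400.1 ± 84.3 (SD, n = 3), which makes Trf 7.0-fold lower in PDGFA. The log2 fold change was -2.82 (SE 0.178, 95% interval -3.24 to -2.41, adjusted p = 3.58e-05), lower in all 3 mice. Under the alternatives its adjusted p stayed at or under 0.00218, with log2 fold changes from -2.98 to -2.67. This fall stood beside the oligodendrocyte marker sums given above, which were higher in every PDGFA library.

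Tfrc encodes the transferrin receptor (chromosome 16, 32608920 to 32632794, plus strand). Its normalized counts were 2428, 6974 and 10080 in EF and 3818, 2865 and 2783 in PDGFA. The highest EF library held 4.15 times the lowest, the EF library of mouse 62 lay below all PDGFA libraries, and the groups overlapped. The means were 6493 ± 3850 and 3155 ± 576 (SD, n = 3 each), with a log2 fold change of -0.83 (SE 0.475, 95% interval -1.94 to 0.28, adjusted p = 0.203). Within mice the log2 difference was 0.65 (62), -1.28 (68) and -1.86 (69). Single EF libraries moved this value both ways: the log2 fold change was -1.42 without that of mouse 62 (adjusted p = 0.00309) and -0.40 without that of mouse 69 (adjusted p = 0.491). Without both libraries of mouse 62 it was -1.57 (adjusted p = 0.0051), a setting chosen after seeing the data. The adjusted p was 0.107 with edgeR and 0.0486 with DESeq2, where the log2 fold change was -1.04, and the alternatives together spanned 0.00309 to 0.559. The EF library of mouse 62 also had the lowest neural progenitor marker sum of its group, 107700. Whether the makeup of that culture had a part in its Tfrc level was not tested.

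Slc11a2 encodes the divalent metal transporter that moves iron out of the endosome (chromosome 15, 100387898 to 100425072, minus strand). It stood at 1304, 1671 and 1932 normalized counts in EF and 1650, 1381 and 1312 in PDGFA. The groups overlapped, and, as for Tfrc, the mouse 62 library was the lowest in EF and the highest in PDGFA. The log2 fold change was -0.16 (SE 0.184, 95% interval -0.59 to 0.26, adjusted p = 0.507), and no alternative called it (adjusted p from 0.0984 to 0.883). The estimate was -0.32 without the EF library of mouse 62 and -0.04 without that of mouse 69. The interval holds changes of either sign, so no direction was given for this transporter.

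Both ferritin chains were higher in PDGFA. Fth1 encodes the heavy chain, which oxidises iron as it enters the shell (chromosome 19, 9980598 to 9985098, plus strand). It was read at 6475, 9636 and 9408 normalized counts in EF and 17010, 19410 and 20790 in PDGFA. Every PDGFA library was higher than every EF library. The means were 8506 ± 1760 and 19070 ± 1910 (SD, n = 3 each), a 2.24-fold rise with a log2 fold change of 1.18 (SE 0.195, 95% interval 0.73 to 1.64, adjusted p = 0.00273), higher in all 3 mice.

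Ftl1 encodes the light chain, which helps the iron core to form (chromosome 7, 45457944 to 45459884, minus strand). Its normalized counts were 4879, 5771 and 5120 in EF and 9416, 9094 and 9015 in PDGFA. The groups did not overlap, and the PDGFA libraries lay within a narrow band. The means were 5257 ± 461 and 9175 ± 212 (SD, n = 3 each), a 1.75-fold rise with a log2 fold change of 0.81 (SE 0.128, 95% interval 0.51 to 1.10, adjusted p = 0.0023), higher in all 3 mice. Under all alternatives the adjusted p stayed at or under 0.029 for Fth1 and 0.0356 for Ftl1. Ferritin genes have processed copies elsewhere in the genome that can draw reads from them; the 3 copies in the table held 0.21% (Fth-ps2), 0.088% (Ftl1-ps1) and 0.086% (Ftl2-ps) of the normalized counts of the gene they copy.

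Ferroportin RNA was close to the limit of these libraries. Slc40a1 encodes ferroportin, the exporter of cellular iron (chromosome 1, 45908068 to 45926523, minus strand). It had 1.915, 3.378 and 3.835 normalized counts in EF (2, 3 and 3 reads) and 0.8487, 8.594 and 13.44 in PDGFA (1, 9 and 15 reads). The libraries of mice 68 and 69 were higher in PDGFA and that of mouse 62 was lower, so the groups overlapped. The mean was under 10 normalized counts, and Slc40a1 was left out of the test; with no filter on low values the estimate was 0.68 on the log2 scale (SE 0.779, adjusted p = 0.533).

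Cp encodes ceruloplasmin, the copper oxidase that loads exported iron onto transferrin (chromosome 3, 19957054 to 20009145, plus strand). It was read at 351.5, 225.2 and 184.1 normalized counts in EF and 28.86, 45.83 and 48.38 in PDGFA. Every PDGFA library was lower than every EF library. The means were 253.6 ± 87.2 and 41.02 ± 10.6 (SD, n = 3 each), which makes Cp 6.18-fold lower in PDGFA, with a log2 fold change of -2.58 (SE 0.356, 95% interval -3.41 to -1.75, adjusted p = 0.00122), lower in all 3 mice. The adjusted p stayed at or under 0.0203 under all alternatives. Exons of Cp overlap Hps3 on the other strand (632.5 in EF and 537.3 in PDGFA), and the library kit does not mark strand, so some of the reads of one gene may belong to the other. The markers of astrocytes, a cell type known to make ceruloplasmin, summed to between 51730 and 96730 in EF and between 177600 and 286800 in PDGFA. Of the 9, 5 were called higher and none lower. Gfap had means of 36.15 in EF and 91000 in PDGFA. The means of Aldh1l1 (8816 and 6635), Slc1a3 (37350 and 33510) and Fgfr3 (6311 and 4297) were lower in PDGFA.

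The RNAs of the iron sensors did not pass the test. Ireb2 encodes an iron regulatory protein that is degraded when iron is plentiful (chromosome 9, 54863789 to 54912530, plus strand). Its normalized counts were 5117, 4746 and 5115 in EF and 5702, 5525 and 4947 in PDGFA. The groups overlapped, and the log2 fold change was 0.11 (SE 0.124, 95% interval -0.18 to 0.40, adjusted p = 0.517), the narrowest interval of the 9 tested genes. The alternatives gave adjusted p-values between 0.407 and 0.887.

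Aco1 encodes the other iron regulatory protein, which is an aconitase when it carries an iron-sulfur cluster (chromosome 4, 40143081 to 40198338, plus strand). Its normalized counts were 3310, 5477 and 5562 in EF and 4465, 4425 and 4146 in PDGFA. The PDGFA libraries fell between the EF library of mouse 62 and the other EF libraries, so the groups overlapped. The log2 fold change was -0.10 (SE 0.213, 95% interval -0.60 to 0.40, adjusted p = 0.737). Without the EF library of mouse 62 it was -0.35 and was called (adjusted p = 0.0351), and it turned to 0.02 without the EF library of mouse 68 and to 0.03 without that of mouse 69. No direction was therefore given for Aco1.

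Hmox1 encodes haem oxygenase, which opens the haem ring and sets its iron free (chromosome 8, 75093621 to 75100589, plus strand). It had 923.2, 583.2 and 485.8 normalized counts in EF and 1412, 1260 and 1396 in PDGFA. Every PDGFA library was higher than every EF library, and the EF library of mouse 62 was the highest of its group. The means were 664.1 ± 230 and 1356 ± 83.4 (SD, n = 3 each), a 2.04-fold rise with a log2 fold change of 1.08 (SE 0.241, 95% interval 0.52 to 1.64, adjusted p = 0.0104), higher in all 3 mice. It was called in 17 of 18 alternatives. Without both libraries of mouse 68 the log2 fold change was 1.07 and the adjusted p 0.0891, in a fit with 2 libraries a group.

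**Figure D2:**
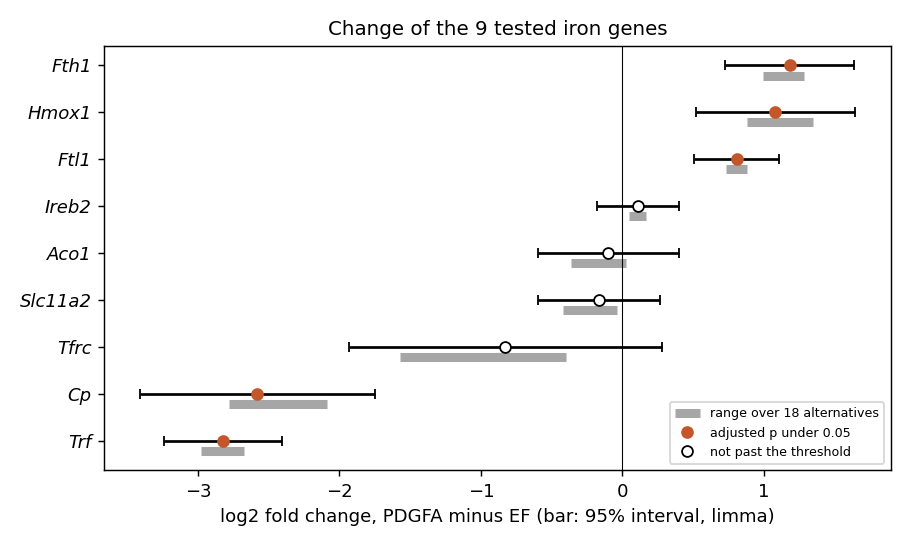
Log2 fold change of the 9 tested iron genes, PDGFA minus EF, on the horizontal axis; points are the limma estimates from 3 against 3 libraries, black bars their 95% intervals and grey bars the range over 18 alternatives. Fth1, Hmox1 and Ftl1 lie to the right of 0 and Cp and Trf to the left with their whole intervals, and the grey bar of Tfrc runs from -1.57 to -0.40.

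A single EF library stood at the edge of its group for all 10 genes, by little for Trf and Ireb2. The EF library of mouse 62 was the lowest of its group for Tfrc, Slc11a2, Fth1, Ftl1, Aco1 and Slc40a1 and the highest for Trf, Cp, Hmox1 and Ireb2. For Slc40a1 this rested on 2 reads against 3 and 3, and for Trf and Ireb2 the margin was small. For other genes another EF library stood apart: Pdgfra was at 14130 for mouse 68, against 860.9 and 533.1 for mice 62 and 69. Over all tested genes, the median SD between libraries of a group (log2) was 0.38 in EF and 0.172 in PDGFA. Without the EF library of mouse 62, limma called 7 of the 9 tested genes, with Tfrc and Aco1 added as lower, while the share of all tested genes called rose to 47.2%.

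Ratios of genes within a library do not depend on how the libraries were scaled. The ratio of Tfrc to Fth1, uptake against storage, stood at 0.375, 0.724 and 1.07 in EF for mice 62, 68 and 69, compared with 0.224, 0.148 and 0.134 in PDGFA. Every PDGFA library had a lower ratio than every EF library, including mouse 62, whose Tfrc level alone was higher in PDGFA. On the log2 scale the ratio went from -0.594 ± 0.765 to -2.606 ± 0.396 (SD, n = 3 each), a difference of -2.01 (exact permutation test, two-sided, p = 0.1, the smallest that 3 against 3 can give). Within mice the difference was -0.74 (62), -2.29 (68) and -3.00 (69).

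For the ferritin chains, the EF libraries held 1.33, 1.67 and 1.84 times as many normalized counts of Fth1 as of Ftl1, and the PDGFA libraries 1.81, 2.13 and 2.31 times. The groups overlapped, while the ratio was higher in PDGFA within each mouse, by 0.45, 0.35 and 0.33 on the log2 scale. The difference of the means was 0.38 on the log2 scale (exact permutation test, two-sided, p = 0.2), and 0.24 without the EF library of mouse 62. The EF libraries had log2 ratios of Ireb2 to Aco1 of 0.63, -0.21 and -0.12, and the PDGFA libraries of 0.35, 0.32 and 0.26, a difference of 0.21 (exact permutation test, two-sided, p = 0.4), which was 0.47 without the EF library of mouse 62, 0.06 without that of mouse 68 and 0.10 without that of mouse 69, with the difference negative in mouse 62 and positive in the other mice. The p-values of the 3 ratios were not adjusted, and none could pass 0.05 in this design.

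**Figure D3:**
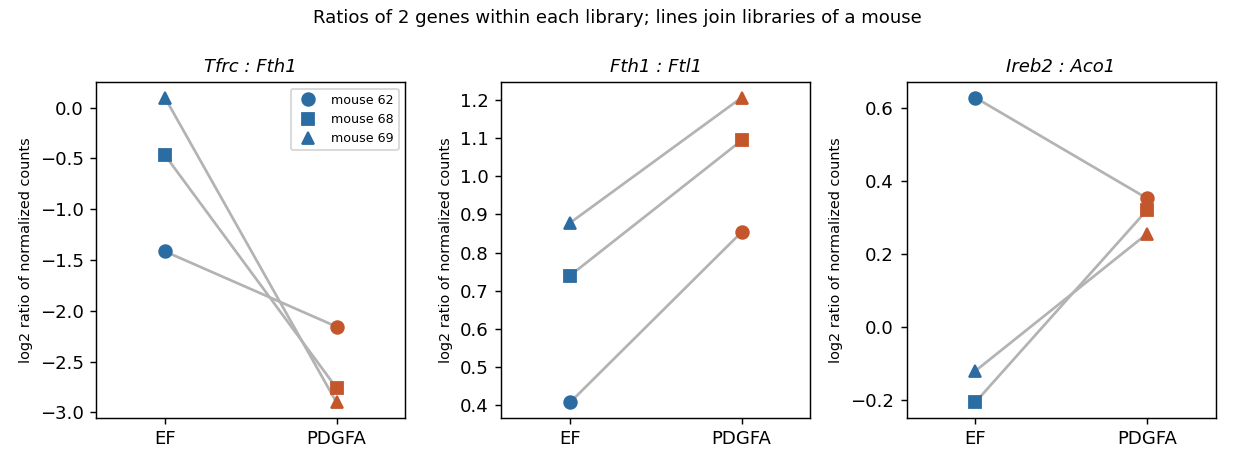
Log2 ratio of the normalized counts of 2 genes within each library (vertical axes, own scale per panel) in EF and PDGFA; each point is 1 library and grey lines join the libraries of a mouse. The Tfrc to Fth1 ratio falls in all 3 mice, the Fth1 to Ftl1 ratio is higher in PDGFA in all 3 mice, and the lines of Ireb2 to Aco1 run both ways.

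Levels of different genes were compared as normalized counts per kilobase of annotated exon. The exons of all transcripts of a gene were joined for this length, which understates genes with long, little-used exons. This length was 3469 bases for Fth1 and 1340 for Ftl1. Before division by it, Fth1 had more normalized counts than Ftl1 in every library. The order of the 2 ferritin chains below therefore depends on the length used. In EF, Ftl1 was highest, with a mean level of 3923 per kilobase (3641 to 4307 over the libraries), followed by Fth1 at 2452 (1866 to 2778). Aco1 at 1064, Tfrc at 1050 (392.5 to 1629) and Trf at 843.4 followed, and these 3 did not differ beyond the spread of Tfrc and Aco1. Ireb2 at 526.7, Hmox1 at 379.2 (277.4 to 527.2) and Slc11a2 at 257.4 came next, with Hmox1 overlapping both others, and Cp at 26.51 and Slc40a1 at 0.338 were last.

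In PDGFA the ferritin chains kept the first places, with levels of 6847 per kilobase for Ftl1 and 5498 for Fth1. Aco1 at 966.5 and Hmox1 at 774.5 (719.8 to 806.6) followed without overlap. Ireb2 at 568.8 and Tfrc at 510.2 overlapped. Slc11a2 at 227.8 and Trf at 120.5 (96.89 to 147.3) were lower, and Cp at 4.289 and Slc40a1 at 0.848 were last. Trf thus went from place 5 to place 8 of the 10 genes, and Hmox1 from place 7 to place 4.

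For the 4 called genes with a fold of at least 2, genes with the most similar profile over the 6 libraries were listed. The measure was the distance between centred log2 values. For Trf these were Lama5 (distance 0.263), Slc37a2 (0.365) and Gcnt4 (0.384). For Fth1 they were Nnat (0.102) and Gab1 (0.194). For Cp they were Rbms3 (0.329), Phex (0.43) and Celrr (0.515), and for Hmox1 they were Flcn (0.183), Abcc5 (0.194) and Tbc1d24 (0.22). Such likeness rests largely on the difference between the groups.

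Around these 10 genes, 9 lists with 135 further genes of iron handling were examined, of which 120 were tested. In PDGFA 32 were higher and 18 lower, which is 41.7% called against the 39.8% of all genes. Their median log2 fold change was 0.19. Leaving out the PDGFA libraries of mice 62, 68 and 69 in turn left 20, 18 and 21 higher and 10, 9 and 10 lower. Leaving out the EF libraries of the same mice in turn gave 32, 24 and 34 higher and 25, 13 and 12 lower. With the mouse as a replicate block 27 were higher and 12 lower. The counts of each list stand against 21.8% of all tested genes higher and 18.0% lower. The genes named below are those with the smallest p in each list, up to 3 in each direction, and their values are means of normalized counts.

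In the list of the transferrin cycle and endosomal iron, 3 of 12 tested genes were higher and 2 lower, with a median log2 fold change of 0.41. Cybrd1, a membrane reductase that turns ferric into ferrous iron, fell from 3123 ± 1670 to 210.8 ± 133 (log2 fold change -3.91, SE 0.537, adjusted p = 0.00119). Rab11fip2, of the recycling endosome, rose from 863.6 to 1697 and Exoc6, an exocyst subunit needed for transferrin cycling, from 352.6 to 653.4 (log2 fold changes 0.99 and 0.89). Steap3, the endosomal ferric reductase, was at 7.661, 65.30 and 113.8 in EF and 249.5, 459.3 and 194.4 in PDGFA, with a log2 fold change of 2.81 (adjusted p = 0.0417). The call of Steap3 was lost without the EF library of mouse 68 or without any one PDGFA library (adjusted p from 0.0594 to 0.131), and its log2 fold change was 1.70 without the EF library of mouse 62 and 3.56 without that of mouse 69.

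Among other iron importers and ferritin receptors, 1 of 6 tested genes was higher and 1 lower. These were Cubn (log2 fold change 1.19, adjusted p = 0.0367) and Slc39a8, a metal importer (-1.61, adjusted p = 0.0383). Both lost the call without the EF library of mouse 68 or the PDGFA libraries of mice 62 or 68, Cubn also without PDGFA of mouse 69 and Slc39a8 without EF of mouse 69, with adjusted p up to 0.124 and 0.127. With the mouse as a block neither passed (adjusted p = 0.0641 and 0.0523). Slc39a14, a related metal importer, had 1264 ± 53.1 and 1903 ± 588 and did not pass (adjusted p = 0.0798).

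In the list of storage, chaperones and ferritin turnover, 1 of 7 tested genes was higher and 1 lower, with a median of -0.12. Ncoa4, the receptor that hands ferritin to the autophagosome, rose with the ferritin chains, from 1068 ± 108 to 1706 ± 32.6 (log2 fold change 0.68, SE 0.135, adjusted p = 0.00638). Glrx3, a glutaredoxin that carries iron-sulfur clusters, was lower (log2 fold change -0.59, adjusted p = 0.0194), a call lost without any one PDGFA library (adjusted p from 0.0527 to 0.0771) and with the mouse as a block (0.0516).

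In the list of iron export and its control, 4 of 7 tested genes were higher and none lower, with a median of 1.08. The list is wider than its name, as it holds Marchf8, which acts on uptake, and it leaves out Slc40a1. Its count therefore does not describe export alone. Marchf8, a ubiquitin ligase known to send the transferrin receptor to degradation, had 1954, 2595 and 2354 in EF and 20500, 24920 and 23480 in PDGFA. Every PDGFA library was higher, and the log2 fold change was 3.32 (SE 0.158, adjusted p = 1.74e-05). Bmp6, the ligand that induces hepcidin in the liver, had 0, 2.252 and 1.278 in EF and 278.4, 388.6 and 103.0 in PDGFA, with a log2 fold change of 6.85 (adjusted p = 0.00021) that depends on the pseudocount because EF had few or no reads. App, the amyloid precursor, rose from 8520 ± 1760 to 17830 ± 928 (log2 fold change 1.08, adjusted p = 0.00269). The exporter itself, Slc40a1, stayed at the low read counts given above, and Heph, the other copper oxidase, had 51.28 ± 39.9 and 124.4 ± 45.8 and did not pass (adjusted p = 0.116). Heph passed as higher with the mouse as a block (adjusted p = 0.0393) and without the EF library of mouse 68 (log2 fold change 2.22, adjusted p = 0.048), against 1.60 over all 6 libraries and 0.78 without the EF library of mouse 62.

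In the list of control of the iron regulatory proteins, 3 of 9 tested genes were higher and none lower, with a median of 0.54. This list is also wider than its name, as Zc3h12a acts on the transferrin receptor RNA. Its count therefore does not describe control of these proteins alone. Zc3h12a, an RNase known to cut the transferrin receptor RNA, rose from 14.41 to 79.47 (log2 fold change 2.40, adjusted p = 0.0026). Epas1 (1.22, adjusted p = 0.0298) and Skp1a (0.55, adjusted p = 0.043) lost the call in 5 and 4 of the 6 fits that leave out 1 library: Epas1 in all but the one without EF of mouse 68, Skp1a in all but those without EF of mice 62 or 69, with adjusted p up to 0.0884 and 0.145. With the mouse as a block Skp1a did not pass (adjusted p = 0.0639). Fbxl5, the iron-sensing subunit of the ligase that degrades the Ireb2 protein, had 1696 ± 460 and 1784 ± 104 and did not pass (adjusted p = 0.706).

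In the haem list, 8 of 22 tested genes were higher and 4 lower, with a median of 0.37. Slc48a1, which carries haem out of the lysosome, rose with Hmox1, from 1147 ± 28.7 to 3121 ± 856 (log2 fold change 1.41, adjusted p = 0.00128). Bach1, the haem-binding repressor of Hmox1 transcription, also rose, from 1962 ± 230 to 3740 ± 308 (0.93, adjusted p = 0.00197). Flvcr2, a membrane transporter, rose from 9.92 to 55.18 (2.66, adjusted p = 0.0129), and its call was lost without the PDGFA library of mouse 68 (adjusted p = 0.055) while its log2 fold change was 2.002 without the EF library of mouse 69. Abcg2, an efflux pump that also carries porphyrins, fell from 1106 ± 291 to 241.9 ± 44.3 (-2.17, adjusted p = 0.00057), and Slc25a39, a mitochondrial glutathione carrier, fell from 4395 ± 787 to 2528 ± 60.0 (-0.78, adjusted p = 0.00608). Abcb6 was lower (-1.08, adjusted p = 0.0321), a call lost without the EF library of mouse 68 or any one PDGFA library (adjusted p from 0.0681 to 0.108) and with the mouse as a block (0.0647). Hmox2, the constitutive haem oxygenase, had 880.5 ± 229 and 811.3 ± 24.5 and did not pass (adjusted p = 0.792).

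In the list of mitochondrial iron and iron-sulfur clusters, 3 of 31 tested genes were higher and 7 lower, with a median of 0.01. Fdxr, the ferredoxin reductase, fell from 742.3 ± 49.4 to 399.1 ± 11.6 (log2 fold change -0.89, adjusted p = 0.00325). Hspa9, the chaperone of cluster assembly, fell from 14160 ± 2710 to 7710 ± 93.3 (-0.86, adjusted p = 0.00696). Nubp1, of the cytosolic assembly machinery, fell from 1246 ± 424 to 483.6 ± 100 (-1.33, adjusted p = 0.00779). The 3 higher genes, Lyrm4 (0.76, adjusted p = 0.0263), Mms19 (0.51, adjusted p = 0.0312) and Ciao1 (0.47, adjusted p = 0.047), each lost the call without the EF library of mouse 68 or any one PDGFA library, and Ciao1 also without EF of mouse 62 (adjusted p up to 0.193). With the mouse as a block none of these 3 passed (adjusted p = 0.0576, 0.0547 and 0.108).

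NRF2 is the factor that induces Hmox1 and ferritin genes under oxidative stress. In its list, 5 of 15 tested genes were higher and none lower, with a median of 0.34. The list holds more than targets, as Nfe2l2, which encodes NRF2 itself, and Keap1, which encodes its inhibitor, are in it. Neither of these passed (adjusted p = 0.925 and 0.885). Gsta4 rose from 123.2 to 749.8 (log2 fold change 2.64, adjusted p = 0.000705), Abcc1 from 1350 ± 130 to 2717 ± 153 (1.01, adjusted p = 0.000941) and Gclm, a subunit of the first enzyme of glutathione synthesis, from 1599 ± 255 to 3273 ± 378 (1.04, adjusted p = 0.00239). Other known targets did not pass over all 6 libraries: Nqo1 had 123.4 ± 41.9 and 93.24 ± 15.5 (adjusted p = 0.405), Txnrd1 7105 ± 2030 and 5002 ± 752 (adjusted p = 0.135), and Slc7a11 1754 ± 1930 and 1690 ± 365 (adjusted p = 0.578). The EF library of mouse 62 decided the last 2: without it Slc7a11 was called higher (log2 fold change 1.39, adjusted p = 0.00347, against 0.51 over all 6 libraries) and Txnrd1 lower (-0.68, adjusted p = 0.0284).

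In the ferroptosis list, iron-driven death by lipid peroxidation, 4 of 11 tested genes were higher and 3 lower, with a median of 0.46. Gpx4, the peroxidase that repairs lipid peroxides, rose from 1247 ± 116 to 2656 ± 194 (log2 fold change 1.09, adjusted p = 0.000748). Acsl4, which activates polyunsaturated fatty acids, fell from 2624 ± 1300 to 655.6 ± 220 (-1.92, adjusted p = 0.00742). Alox5 rose from 2.292 (1.126 to 3.835 over the libraries) to 106.0 (5.05, adjusted p = 0.00021) and Sat1 from 358.5 ± 63.8 to 1483 ± 569 (1.99, adjusted p = 0.00155). Alox5 lies next to Marchf8 on chromosome 6 (116410077 to 116461178, minus strand, and 116338024 to 116409540, plus strand). The library kit does not mark strand, and whether reads from beyond the end of Marchf8 were counted for Alox5 was not tested. Dhodh (-0.67, adjusted p = 0.0359) and Gch1 (-1.48, adjusted p = 0.0479) each lost the call in 5 of the 6 fits that leave out 1 library, Dhodh in all but the one without EF of mouse 62 and Gch1 in all but the one without PDGFA of mouse 62 (adjusted p up to 0.122 and 0.153). With the mouse as a block Dhodh did not pass (adjusted p = 0.0744).

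**Figure D4:**
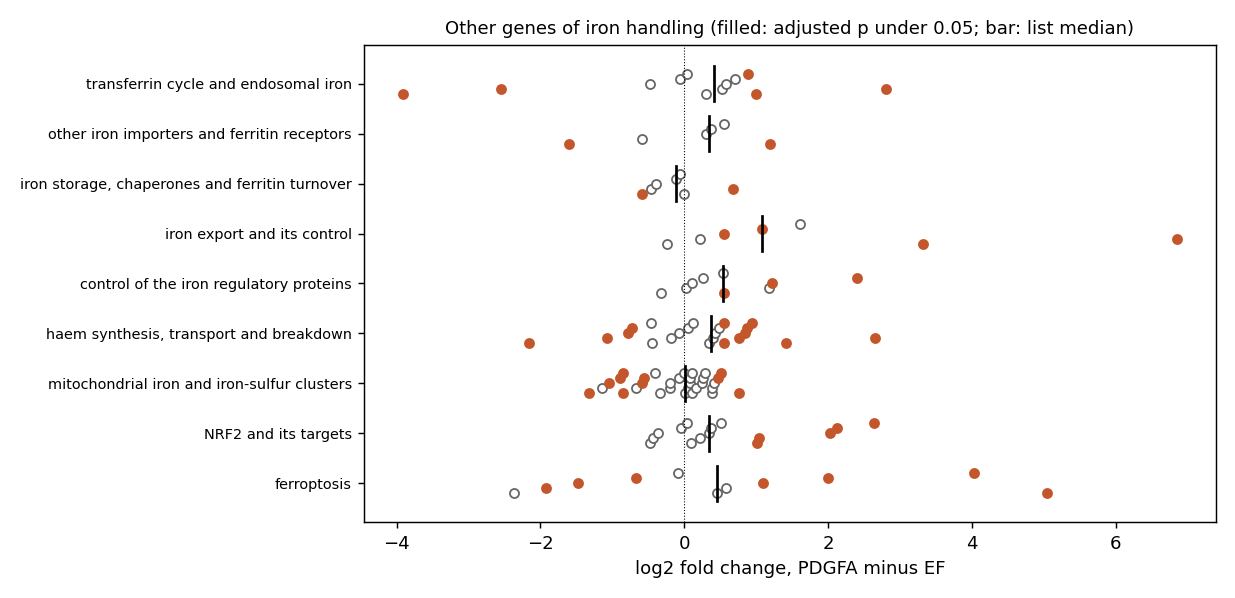
Log2 fold change, PDGFA minus EF (horizontal axis), of the 120 tested genes of the 9 iron lists (rows); each circle is 1 gene from limma over 3 against 3 libraries, filled where the adjusted p was under 0.05, and the bar is the median of the list. The list of export and its control, which also holds genes outside export such as Marchf8, has 4 filled circles, all to the right of 0. The mitochondrial list has 7 filled circles to the left and 3 to the right.

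Genes other than the 10 whose UTR held the same stem-loop pattern were called in both directions, beside 21.8% higher and 18.0% lower among all tested genes. Of 15 tested with a match in the 5′ UTR, 3 were higher and 4 lower (median log2 fold change -0.21). Of 74 tested with a match in the 3′ UTR, 22 were higher and 15 lower (median 0.02).

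Markers of blood and of microglia were at low counts in both groups. All haemoglobin genes of the erythroid list were absent from the table, and its sum was 0 to 3.835 in EF and 2.546 to 6.684 in PDGFA. Of 12 markers of microglia and macrophages, cells that handle much of the iron of the brain, 10 were not in the table, and the sum was 11.49 to 44.74 in EF and 5.729 to 8.959 in PDGFA. Of 8 markers of choroid plexus and ependyma, a source of transferrin, Ttr, Kl and Clic6 were among the 5 not in the table. The sum was 110.1 to 259.0 in EF and 624.7 to 926.2 in PDGFA. Foxj1 carried most of it, with means of 191.3 and 783.6. Folr1 had means of 0.3753 and 29.6 and Kcne2 of 0.8014 and 2.381. The sums of oligodendrocyte and astrocyte markers were higher in every PDGFA library, and that of neural progenitor markers was lower. The sum of pericyte and fibroblast markers was 76.61 to 157.6 in EF and 809.7 to 961.6 in PDGFA, with 2 of 3 tested genes higher and 1 lower: Pdgfrb carried most of it (21.93 and 814.7), Col1a1 had 62.29 and 18.95, and Dcn and Lum were not in the table. The oligodendrocyte list had 8 of 9 tested genes higher and none lower, and the neural progenitor list 2 of 8 higher and 5 lower. The part of these shifts in the changes of Fth1, Ftl1, Hmox1, Trf and Cp was not tested.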

How the data were processed

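The authors deposited 1 table of normalized signal (counts of reads scaled by a size factor for each library) of 22057 genes; FastQC, STAR, DESeq2 and mm10 (GRCm38) are named per the submitters' processing notes. For the counting, the annotation release and the strandedness were not given in the sources used here. Total RNA was made into libraries with NEBNext Ultra II E7770, per the labels' protocols. Whole reads were recovered from the smallest step of each library (100% of values whole within 0.001; size factors 0.782 to 1.18). The lowest total of a gene was 10 reads. Reads carry no molecular identifiers, so depth limits low genes such as Slc40a1.

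Genes with a mean normalized count of at least 10 were tested (17068; 4989 left out) on log2(value + 1) with limma 3.58.1 (lmFit, eBayes with trend) in R 4.3.3, two-sided, with no term but the group, Benjamini-Hochberg over all of them at 0.05. Fold changes on this scale understate those of low genes. edgeR 4.0.16 (quasi-likelihood) and DESeq2 1.42.0 on recovered reads, other scalings, filters and pseudocounts, the mouse as a block, and left-out libraries were alternatives. The tests were also run on simulated reads with the levels and spread of EF in both groups and few changed genes. That setting differs from these data, and no result here rests on it. The members and lists were chosen with earlier results of these data known. From each list, up to 3 called genes per direction with the smallest p were named, and for called members with a fold of at least 2 the 3 genes nearest in profile; some genes that this rule took are not reported here, and other genes named were chosen after their values were seen.

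Libraries with the same mouse number in their titles come from the same animal and are pairs. Deviations of the 2 libraries of a mouse from their group means had correlations of -0.0906, 0.11 and -0.11 for mice 62, 68 and 69. GENCODE M21 (GRCm38) gave coordinates and UTRs by symbol.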

Additional observations from a re-analysis of the deposited data

How the results depend on the processing

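With the mouse as a replicate block, 3213 genes were higher and 2626 lower, 5 of the 10 iron genes and 27 higher and 12 lower genes of the iron lists were called, and no call of the 10 genes changed. The 3 ratios kept their differences (paired exact permutation p = 0.25, 0.25 and 0.5 for Tfrc to Fth1, Fth1 to Ftl1 and Ireb2 to Aco1).

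Trf, Cp, Fth1 and Ftl1 kept their direction and their call in all 18 alternatives, and Hmox1 in 17, its adjusted p being 0.0891 without both libraries of mouse 68. Tfrc, not called over all 6 libraries, was called with DESeq2, without the EF library of mouse 62 and without both libraries of mouse 62. Slc11a2 and Ireb2 were called in none. Aco1 turned to 0.017 without the EF library of mouse 68, 0.029 without that of mouse 69 and 0.004 without both libraries of mouse 68, and was -0.366 without both of mouse 62, a setting added after seeing the data; the cause was not tested.

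Leaving out 1 library at a time gave 2306 to 4213 genes higher (3720 over all 6) and 1855 to 3848 lower (3076), with the fewest without the PDGFA library of mouse 68. For the iron lists these ranges were 18 to 34 higher (32) and 9 to 25 lower (18). Without both libraries of mouse 68, 1945 genes were higher and 1335 lower, and in the iron lists 14 and 5. These fits have fewer samples. Of the 10 iron genes, 4 to 7 were called over all alternatives. Other scalings moved the median of all genes by between -0.0618 and 0.0168 (log2). Depth limits Slc40a1, with 1 to 15 reads a library.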
